A study of Mus musculus with 9 samples.

Results

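Immunoglobulin heavy and light chain transcripts were followed in RNA-seq libraries of mouse splenic CD4+ T cells. The genes were taken by name, as the heavy variable (Ighv), kappa variable (Igkv) and lambda variable (Iglv) genes, the constant genes of both chains and Jchain, and were kept at a mean of at least 1 TPM over the 3 libraries of cells in medium. TPM is a length-corrected share of all transcripts, scaled to a common total in every library. Of 362 rows with such names among the 55487 genes listed, 230 met the rule. They comprised 7 heavy constant genes, 5 light constant genes, Jchain and 217 variable genes, namely 113 Ighv, 101 Igkv and 3 Iglv, of which 17 variable genes are annotated as pseudogenes. The 132 other rows lay under 1 TPM in medium, and the IgE constant gene Ighe was among them with a mean of 0.315 TPM.

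The cells came from the spleens of C57BL/6 wild-type (Trail-r+/+) mice, which were females of 6 to 7 weeks of age per the study's methods, and were purified by removal of the other cell types. Each of the 3 groups holds 3 libraries. The first was kept in medium, for a time that is not given in the sources used here, the second received 3 µg/ml of anti-CD3 plus 2 µg/ml of anti-CD28 Abs for 24 h, and the last received the same Abs together with TRAIL at 10 µg/ml, the tumor necrosis factor family ligand that binds TRAIL-R. They are called medium, stimulated and TRAIL-treated below. Trail-r-/- cells, and TRAIL in the absence of Abs, were not analysed here. The labels do not say whether the libraries of a group came from separate animals, so p-values measure only the spread between these libraries, and since TPM keeps no read totals the depth behind each value is unknown.

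Antibodies are made by B cells and by the plasma cells that derive from them. Each B cell joins a variable gene to shorter segments on the heavy chain locus (chromosome 12 in the mouse) and on a light chain locus, kappa on chromosome 6 or lambda on chromosome 16, and the joined exon is spliced to a constant gene that sets the isotype. Naive B cells carry IgM and IgD, class switching replaces them with IgG, IgA or IgE, and the J chain links IgA and IgM into polymers. T cells rearrange T cell receptor genes instead.

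The T cell identity of the libraries was checked first. The 14 T cell markers, among them Cd3d, Cd3e, Cd4 and Trac, summed to between 6259 and 6439 TPM in medium, between 5934 and 6131 TPM with Abs and between 6176 and 6687 TPM when TRAIL was added, and 0 of the 14 passed both thresholds of a call, on the adjusted p and on the fold change, between TRAIL-treated and stimulated cells. Of all 15536 genes tested, 10736 did not pass them either. By the limma adjusted p alone 6 of the 14 were higher with TRAIL, with Cd3g at a log2 fold change of 0.99 and Cd4 at 0.81, and 4 were lower at an unadjusted p under 0.05, with Cd2 at -0.91. The immunoglobulin genes summed to between 25002 and 26928 TPM in medium, between 2260 and 2461 TPM after stimulation and between 16721 and 18920 TPM with TRAIL. They made up 2.58% ± 0.10 (SD, n = 3) of all TPM in medium, 0.235% ± 0.010 after stimulation and 1.79% ± 0.11 with TRAIL. In bulk RNA, fewer cells of a type and less RNA per cell cannot be told apart.

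The members were chosen on the medium libraries, so the values against medium are a description with no test. In stimulated cells the median member stood at 7.62% of its medium mean, and in TRAIL-treated cells at 68.8%. All 3 medium libraries lay above all 3 stimulated ones for 228 of the 230 genes, against 42.6% of all genes tested, and above all 3 TRAIL-treated ones for 141, against 38.2%. TRAIL-treated libraries all lay above medium for 8 genes, each a variable gene, against 12.4% of genes tested.

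TRAIL-treated and stimulated cells were compared with a test, since the rule did not use their libraries. limma on log2(TPM + 1) was fitted over the 15536 genes that reached 1 TPM in 3 or more libraries. A gene was called when its Benjamini-Hochberg adjusted p was below 0.05 and it moved by 1 or more on the log2 scale. Of the 230 members 203 were called higher with TRAIL, against a background of 16.6% of all genes tested, and 17% of those whose medium mean was 1 TPM or more. None was called lower, against 14.3% of all genes. At an unadjusted limma p under 0.05, 0 members had a lower value, against 5417 of the 15536 genes tested. The log2 fold change was above 0 for 225 of the 225 members tested, with a median of 2.65. Over all genes tested it was above 0 for 7831 of 15536, and the median was 0.01. With no test, TRAIL-treated libraries all exceeded stimulated ones for 215 of the 230, against 35.5% of genes tested. Of the 225, 219 passed the filter on low values through the medium libraries by themselves and 221 without the TRAIL-treated ones.

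**Figure D1:**
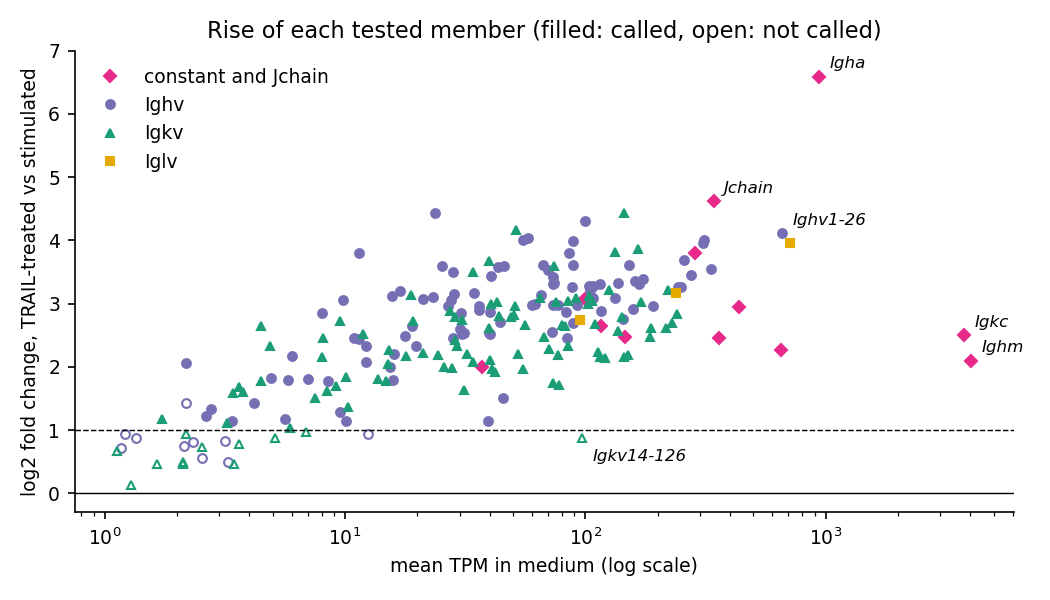
The log2 fold change on the log2(TPM + 1) scale of TRAIL-treated over stimulated cells (vertical axis) is plotted against the mean TPM in medium (horizontal axis, log scale) for the 225 members tested, with filled symbols for called genes, open ones for the others and a dashed line at the threshold of 1. Every point lies above 0, Igha is highest at 6.59, and the open symbols crowd at the low end of the horizontal axis, apart from Igkv14-126.

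The constant genes come first, since each heavy one stands for an isotype. Of these 13 genes, Jchain included, 12 were called higher with TRAIL, with a median log2 fold change of 2.58, and Iglc4 was not tested because of its low level. Their summed TPM, Jchain included, was 11209 ± 133 (SD, n = 3) in medium, 1190 ± 52.2 in stimulated and 7358 ± 415 in TRAIL-treated cells. The mean log2 ratio of TRAIL-treated to stimulated libraries was 2.63 with an exact two-sided permutation p of 0.1, which is the smallest that 3 libraries against 3 can give.

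The heavy constant genes lie side by side on the minus strand of chromosome 12 (GRCm38), from Igha at chr12:113254830-113260236 to Ighm at chr12:113418558-113422730, in the order Igha, Ighg2c, Ighg2b, Ighg1, Ighg3, Ighd and Ighm. Ighm, the constant gene of IgM, was at 3760.5, 4297.5 and 4060 TPM in the medium libraries, at 526, 572 and 534 TPM after stimulation and at 2448.5, 2475 and 2100 TPM with TRAIL. The 3 groups did not overlap, and the TRAIL-treated libraries lay between the others. Its log2 fold change with TRAIL was 2.10 (SE 0.10, limma adjusted p = 5.13e-08). Ighd, which naive B cells co-express with Ighm by splicing, was at 627, 678 and 654 TPM in medium, 45.4, 53.2 and 47.8 TPM after stimulation and 260, 238 and 217 TPM with TRAIL. All 3 groups were again apart, and with TRAIL Ighd reached 36.5% of its medium mean, less than the 58.0% of Ighm. The log2 fold change of Ighd over stimulated cells was 2.26 (SE 0.10, limma adjusted p = 2.27e-08).

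Igha, the constant gene of IgA, the isotype of mucosal secretions, showed the largest rise. It was at 1022, 875 and 926 TPM in medium, at 8.80, 10.6 and 7.31 TPM after stimulation and at 957, 1016 and 866 TPM with TRAIL. The TRAIL-treated and medium libraries overlapped, whereas the stimulated ones stood apart at 0.947% of the medium mean. With TRAIL it rose by 6.59 on the log2 scale (SE 0.13, limma adjusted p = 1.96e-10), and the ratio of the TPM means was 106. Jchain, which lies apart at chr5:88519809-88527891 and whose product joins IgA dimers and IgM pentamers, was at 414, 302 and 309 TPM in medium, 14.2, 12.2 and 9.66 TPM after stimulation and 299, 341 and 307 TPM with TRAIL. As for Igha, the medium and TRAIL-treated libraries overlapped and the stimulated ones lay far below both. Its log2 fold change of 4.62 (SE 0.16, limma adjusted p = 4.71e-09) was the next largest after Igha.

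The 4 IgG genes were less abundant. Ighg1 was at 177, 131 and 129 TPM in medium, 6.73, 7.70 and 7.32 TPM after stimulation and 47.0, 49.7 and 38.1 TPM with TRAIL. Ighg2b was at 123, 83.9 and 93.1 TPM in medium, 9.08, 7.31 and 12.2 TPM after stimulation and 85.9, 85.6 and 85.6 TPM with TRAIL. These genes parted in the TRAIL-treated libraries, where Ighg1 was at 30.9% of its medium mean and did not overlap with medium, while Ighg2b was at 85.6% and lay within the medium range. Ighg2c, which C57BL/6 mice carry in place of Ighg2a, was at 130, 109 and 108 TPM in medium, 16.5, 15.7 and 16.3 TPM after stimulation and 103, 119 and 98.7 TPM with TRAIL. Ighg3 was at 38.9, 34.2 and 38.5 TPM in medium, 6.63, 6.44 and 6.53 TPM after stimulation and 28.7, 28.9 and 30.3 TPM with TRAIL. Stimulated libraries were the lowest for all 4 genes, with no overlap. The log2 fold changes with TRAIL were 2.47 (SE 0.15) for Ighg1, 3.07 (SE 0.18) for Ighg2b, 2.65 (SE 0.11) for Ighg2c and 2.01 (SE 0.09) for Ighg3, with limma adjusted p from 1.37e-08 to 1.91e-07.

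Among light chain constant genes the single kappa gene, Igkc (chr6:70726435-70726966, plus strand), was at 3914, 3653 and 3698 TPM in medium, 497, 435 and 407 TPM after stimulation and 2517, 2640 and 2447 TPM with TRAIL. The groups did not overlap, and Igkc rose with TRAIL by 2.51 on the log2 scale (SE 0.10, limma adjusted p = 1.25e-08). Of the lambda genes on the minus strand of chromosome 16, Iglc1 (chr16:19061618-19062071) was at 309, 257 and 291 TPM in medium, 17.8, 8.54 and 11.6 TPM after stimulation and 174, 193 and 180 TPM with TRAIL. Iglc2 was at 468, 388 and 445 TPM in medium, 51.8, 40.6 and 36.8 TPM after stimulation and 297, 369 and 350 TPM with TRAIL. Both genes had medium libraries above the TRAIL-treated ones and stimulated libraries far below, with log2 fold changes with TRAIL of 3.80 (SE 0.20, limma adjusted p = 9.65e-08) and 2.95 (SE 0.14, limma adjusted p = 4.21e-08). Iglc3 was at 377, 324 and 378 TPM in medium, 33.0, 34.9 and 34.9 TPM after stimulation and 186, 191 and 201 TPM with TRAIL. Its groups were apart, with a log2 fold change of 2.46 (SE 0.09, limma adjusted p = 7.81e-09). Iglc4 stayed between 0.138 and 1.68 TPM in all 9 libraries, and its TRAIL-treated libraries overlapped both other groups.

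**Figure D2:**
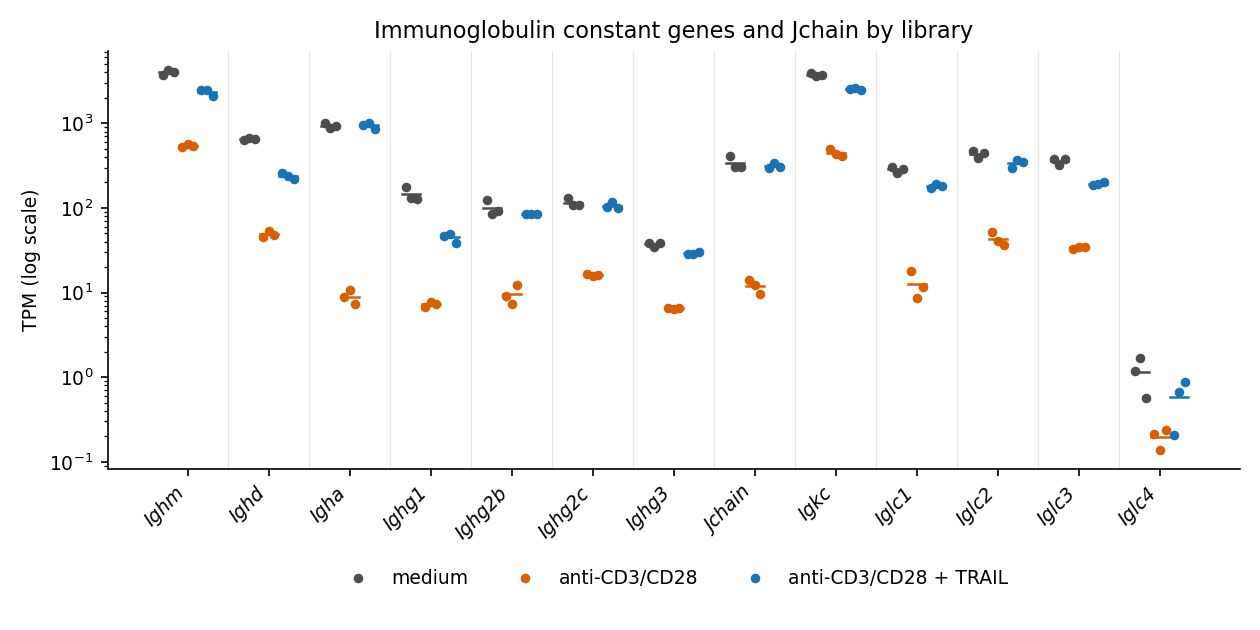
TPM of the 12 constant genes and Jchain (vertical axis, log scale) is shown as a point per library for medium, stimulated (anti-CD3/CD28) and TRAIL-treated (anti-CD3/CD28 + TRAIL) cells, with a bar at each group's mean. The stimulated points lie below both other groups for all genes but Iglc4, while the blue TRAIL-treated points reach the gray medium points for Igha, Jchain, Ighg2b and Ighg2c and stay below them for Ighm, Ighd, Ighg1 and Igkc.

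The isotype make-up was read as each gene's percent of the summed heavy constant TPM of a library. Of the heavy constant TPM, Igha took 17.4, 14.1 and 15.4% in the medium libraries, 1.42, 1.58 and 1.16% after stimulation and 24.3, 25.3 and 25.2% with TRAIL. Ighm took 64.0, 69.2 and 67.6% in medium, 85.0, 85.0 and 84.6% after stimulation and 62.3, 61.7 and 61.1% with TRAIL. The stimulated libraries thus had the highest Ighm share and the lowest Igha share, without overlap with the others. The 4 IgG genes together took 6.63% ± 1.19 (SD, n = 3) in medium, 6.17% ± 0.60 after stimulation and 7.05% ± 0.31 with TRAIL, and Ighd took 10.8% ± 0.13, 7.61% ± 0.29 and 6.29% ± 0.35.

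Ratios within a library were compared next. There were 1.45 ± 0.17 (SD, n = 3) Igha TPM per Ighd TPM in medium, 0.182 ± 0.025 in stimulated and 3.98 ± 0.30 in TRAIL-treated cells. Jchain stood at 0.361 ± 0.038 of Igha in medium and 0.334 ± 0.021 with TRAIL, but at 1.36 ± 0.23 after stimulation. The ratio of light to heavy constant TPM was 0.803 ± 0.059, 0.839 ± 0.112 and 0.860 ± 0.060 in medium, stimulated and TRAIL-treated cells, and the last 2 differed by 0.021 (exact permutation p = 0.8). Of the light constant TPM, lambda genes made up 22.3% ± 1.15, 16.8% ± 0.50 and 22.0% ± 1.18. In all, 41 sums, shares and ratios were compared between TRAIL-treated and stimulated libraries by exact two-sided permutation tests, of which 37 gave the smallest possible p of 0.1, and the adjusted p over the 41 ran from 0.111 to 0.8, so none could reach 0.05.

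**Figure D3:**
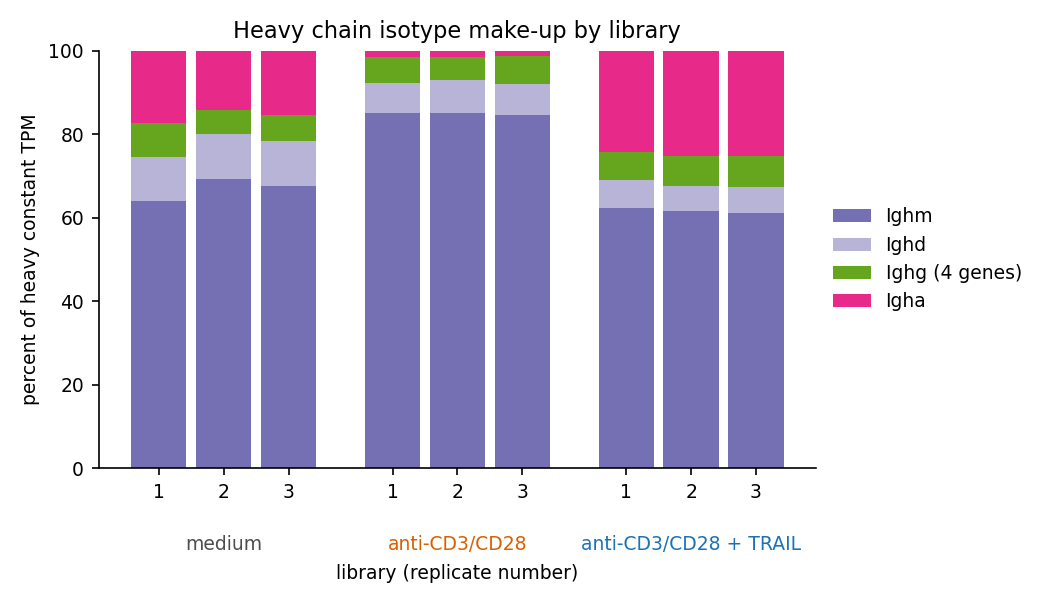
Stacked bars give the percent of heavy constant TPM taken by Ighm, Ighd, the 4 Ighg genes and Igha in each of the 9 libraries, grouped as medium, stimulated and TRAIL-treated. Igha fills 14.1 to 17.4% of the bars in medium, at most 1.58% after stimulation and 24.3 to 25.3% with TRAIL.

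The variable genes come next. Of the 217, 191 were called higher with TRAIL, namely 100 of 113 Ighv, 88 of 101 Igkv and 3 of 3 Iglv genes. The median log2 fold changes of those tested were 2.97, 2.27 and 3.17. Summed variable TPM was 14598 ± 872 (SD, n = 3) in medium, 1163 ± 82.9 in stimulated and 10514 ± 689 in TRAIL-treated cells, a mean log2 ratio of TRAIL-treated to stimulated libraries of 3.18 (exact permutation p = 0.1). In stimulated cells the Ighv sum was at 5.96% of medium and the Igkv sum at 11.1%, and with TRAIL they were at 69.5 and 76.6%. The ratio of Ighv to heavy constant TPM was 1.29 ± 0.10 in medium, 0.719 ± 0.109 after stimulation and 1.42 ± 0.01 with TRAIL, whereas that of Igkv to Igkc was 1.54 ± 0.03, 1.45 ± 0.10 and 1.75 ± 0.03. The number of variable members at 1 TPM or more was 209 to 216 in medium, 150 to 160 after stimulation and 202 to 203 with TRAIL.

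Because variable genes form families of near copies, reads can be divided between them. The genes that led the heavy and the lambda chains are shown here with their closest relative among the members, to let the difference that the reads must resolve be seen. Ighv1-26 and Ighv1-34 are identical at 294 of the 305 coding bases of the variable exon, and Iglv1 and Iglv2 at 296 of 305. The first 300 of these bases follow, 5′ to 3′ from the GENCODE M21 transcripts, and lie on the minus strand of GRCm38 at chr12:114788377-114788676 in Ighv1-26, chr12:114851195-114851494 in Ighv1-34, chr16:19085022-19085321 in Iglv1 and chr16:19260406-19260705 in Iglv2. Capitals mark the bases that differ within the pair, 11 in the heavy and 9 in the lambda pair.
Ighv1-26: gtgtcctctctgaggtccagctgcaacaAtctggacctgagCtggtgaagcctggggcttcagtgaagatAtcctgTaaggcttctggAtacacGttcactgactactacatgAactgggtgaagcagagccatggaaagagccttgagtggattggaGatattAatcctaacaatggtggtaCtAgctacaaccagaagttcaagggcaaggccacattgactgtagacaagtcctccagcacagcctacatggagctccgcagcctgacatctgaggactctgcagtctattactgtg
Ighv1-34: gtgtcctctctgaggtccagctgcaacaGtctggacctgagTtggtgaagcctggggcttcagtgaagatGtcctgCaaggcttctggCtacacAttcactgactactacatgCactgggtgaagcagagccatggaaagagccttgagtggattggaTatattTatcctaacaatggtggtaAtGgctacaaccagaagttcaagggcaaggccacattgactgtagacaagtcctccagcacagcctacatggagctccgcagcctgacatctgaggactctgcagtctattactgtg
Iglv1: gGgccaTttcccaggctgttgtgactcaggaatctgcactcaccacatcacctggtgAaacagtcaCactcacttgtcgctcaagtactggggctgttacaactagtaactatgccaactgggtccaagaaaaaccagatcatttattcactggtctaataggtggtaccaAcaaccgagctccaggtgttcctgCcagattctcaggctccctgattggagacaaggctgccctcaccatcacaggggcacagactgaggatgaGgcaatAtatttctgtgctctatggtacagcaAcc
Iglv2: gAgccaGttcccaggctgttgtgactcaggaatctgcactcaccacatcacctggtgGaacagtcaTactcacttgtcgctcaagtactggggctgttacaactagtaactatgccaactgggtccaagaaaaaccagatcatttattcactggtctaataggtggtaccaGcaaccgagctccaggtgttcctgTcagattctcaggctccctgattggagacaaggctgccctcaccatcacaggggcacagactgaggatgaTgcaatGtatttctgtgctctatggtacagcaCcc

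Ighv1-26 was the most abundant heavy variable gene, at 721, 647 and 613 TPM in medium, 26.5, 40.3 and 36.8 TPM after stimulation and 618, 650 and 557 TPM with TRAIL. Medium and TRAIL-treated libraries overlapped, and both lay above the stimulated ones, with a log2 fold change with TRAIL of 4.12 (SE 0.15, limma adjusted p = 6.84e-09). Its near copy Ighv1-34 was at 16.8, 21.5 and 12.6 TPM in medium, 0.791, 0.807 and 1.58 TPM after stimulation and 14.1, 22.0 and 18.0 TPM with TRAIL. At a far lower level it showed the same overlap and a log2 fold change of 3.21 (SE 0.23). Of all 75-base stretches of the Ighv1-26 transcript 83.8% occur in no other immunoglobulin gene of the table and 16.2% recur in Ighv1-34. Such a stretch is shorter than the paired reads named in the study's methods, which before trimming can tell apart more than it does.

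The other heavy variable genes that were highest in medium also had their lowest values after stimulation. Ighv1-55 was at 361, 338 and 297 TPM in medium, 11.6, 24.4 and 16.1 TPM after stimulation and 212, 221 and 187 TPM with TRAIL. Ighv3-6 was at 346, 301 and 278 TPM in medium, 14.2, 22.9 and 16.9 TPM after stimulation and 295, 315 and 258 TPM with TRAIL. Among these the TRAIL-treated libraries overlapped medium for Ighv3-6 but not for Ighv1-55. Ighv1-53 was at 313, 307 and 311 TPM in medium, 12.8, 12.4 and 16.7 TPM after stimulation and 257, 251 and 207 TPM with TRAIL. Ighv1-64 was at 297, 268 and 261 TPM in medium, 9.01, 15.6 and 13.4 TPM after stimulation and 153, 147 and 136 TPM with TRAIL. For both the 3 groups were apart. The log2 fold changes with TRAIL were 3.55 (SE 0.21) for Ighv1-55, 3.96 (SE 0.16) for Ighv3-6, 4.01 (SE 0.13) for Ighv1-53 and 3.45 (SE 0.16) for Ighv1-64, with limma adjusted p from 3.06e-09 to 2.02e-07.

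The 5 most abundant kappa variable genes lay close together in medium. Igkv10-96 was at 260, 249 and 214 TPM in medium, 28.8, 32.4 and 27.8 TPM after stimulation and 218, 240.3 and 200 TPM with TRAIL. Igkv5-39 was at 246, 226 and 219 TPM in medium, 31.0, 33.0 and 27.7 TPM after stimulation and 192, 210.1 and 207 TPM with TRAIL. Igkv6-23 was at 214, 214 and 235 TPM in medium, 18.4, 21.7 and 19.2 TPM after stimulation and 206, 189 and 185 TPM with TRAIL. Stimulated libraries were lowest for each, and medium and TRAIL-treated ones overlapped only for Igkv10-96 among these 3. Igkv1-135 ranged from 203 to 232 TPM in medium, from 26.0 to 26.3 after stimulation and from 154 to 173 with TRAIL. For Igkv6-15 the ranges were 175 to 207, 17.5 to 20.4 and 118 to 124 TPM. Their log2 fold changes with TRAIL ran from 2.61 (SE 0.10) for Igkv6-15 to 3.22 (SE 0.09) for Igkv6-23, with limma adjusted p from 2.03e-09 to 1.12e-08.

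Iglv1, the variable gene with the highest mean in medium, was at 818, 620.2 and 685 TPM in medium, 35.3, 26.6 and 20.1 TPM after stimulation and 410, 457 and 417 TPM with TRAIL. Iglv2, whose 9 differences from Iglv1 are marked in the sequences, was at 285, 204 and 229 TPM in medium, 26.2, 18.7 and 18.8 TPM after stimulation and 179, 203 and 210 TPM with TRAIL. Iglv1 thus stood well above its near copy in medium and with TRAIL but less so after stimulation, where it was at 3.86% of its medium mean against 8.87% for Iglv2. Iglv3 was at 99.2, 91.0 and 94.6 TPM in medium, 7.61, 7.52 and 6.67 TPM after stimulation and 54.6, 49.6 and 58.2 TPM with TRAIL. The log2 fold changes with TRAIL were 3.95 (SE 0.18) for Iglv1, 3.17 (SE 0.16) for Iglv2 and 2.74 (SE 0.10) for Iglv3, with limma adjusted p from 6.84e-09 to 5.76e-08. In Iglv1 90.5% of the 75-base stretches were its own, and in Iglv2 89.7%.

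The percent of the medium mean kept under stimulation varied among variable genes. The genes of this paragraph were chosen after their values were seen. Igkv14-126 was at 104, 97.2 and 89.2 TPM in medium, 28.5, 36.1 and 35.5 TPM after stimulation and 62.5, 58.6 and 64.1 TPM with TRAIL. It kept 34.4% of its medium mean under stimulation, the highest share of the 230 genes, and its log2 fold change with TRAIL of 0.87 (SE 0.11) missed the threshold of 1, at a limma adjusted p of 5.82e-05. Its share of the Igkv TPM was 1.58 to 1.74% in medium, 4.27 to 5.96% after stimulation and 1.24 to 1.52% with TRAIL. The heavy chain gene Ighv11-2 is known to pair with Igkv14-126 in antibodies against phosphatidylcholine, which B-1 cells make, and Ighv12-3 pairs with Igkv4-91 in antibodies of the same kind. Ighv11-2 was at 48.1, 45.6 and 42.8 TPM in medium, 7.67, 11.5 and 10.1 TPM after stimulation and 29.1, 33.0 and 25.5 TPM with TRAIL. Ighv12-3 was at 12.6, 14.3 and 10.4 TPM in medium, 3.13, 5.03 and 3.65 TPM after stimulation and 5.30 to 11.9 TPM with TRAIL. They kept 21.4 and 31.7% of their medium means under stimulation, compared with a median of 6.25% for Ighv genes, whereas Igkv4-91 kept 14.0% and the median Igkv gene 10.3%. Outside these pairs, Igkv3-7 kept 24.2%, Igkv3-10 22.6% and Igkv17-127 20.3%, all 3 more than Igkv4-91 and less than Ighv12-3. These are examples, and lower genes outside the pairs gained share as well. From medium to stimulated, the mean share of the Ighv TPM went from 0.042 to 0.193% for Ighv11-1 and from 0.073 to 0.310% for Ighv2-6-8. That of Ighv11-2 went from 0.587 to 2.10%. Igkv1-132 went from 0.029 to 0.078% of the Igkv TPM. The log2 fold changes with TRAIL were 1.50 (SE 0.15) for Ighv11-2, 0.94 (SE 0.25) for Ighv12-3 and 1.71 (SE 0.19) for Igkv4-91, of which Ighv12-3 was not called because of the fold change threshold (limma adjusted p = 0.00718). Ighv13-2, which had the largest log2 fold change with TRAIL of the Ighv genes at 4.44, rose from 1.01 to 2.45 TPM after stimulation to 46.4 to 60.0 TPM with TRAIL, and all 3 TRAIL-treated libraries lay above the medium range of 22.9 to 24.8 TPM.

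Variable genes were also summed by family, a group of genes alike in sequence. The largest Ighv family, Ighv1 with 58 members, was at 5.44% of its medium sum after stimulation and at 66.3% with TRAIL, and 53 of its genes were called higher. The largest Igkv family, Igkv4 with 29 members, was at 5.80% and 66.1%, with 24 called. Among Ighv families of 2 or more members the percent of medium after stimulation ran from 4.14% for Ighv4 to 21.8% for Ighv11, and with TRAIL from 51.5% for Ighv2 to 139% for Ighv7. Among such Igkv families it ran from 5.80% for Igkv4 to 22.2% for Igkv14, and with TRAIL from 51.6% for Igkv3 to 97.8% for Igkv9. Igkv14, which holds Igkv14-126, had the fewest calls for its size among these Igkv families, 2 of 5, while all 9 of Igkv6, all 6 of Igkv12 and all 4 of Ighv9 were called.

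The mix of variable genes was compared between libraries through each gene's percent of its class, as a description across genes, which are not independent, of libraries that share the same annotation and read division. Pearson's r over the 113 Ighv genes was 0.992 to 0.996 within medium, 0.996 to 0.997 within TRAIL-treated and 0.949 to 0.964 within stimulated libraries. Between medium and TRAIL-treated libraries it was 0.941 to 0.954, below all values within either group. For the 101 Igkv genes the ranges were 0.984 to 0.991, 0.988 to 0.993 and 0.962 to 0.968 within the groups and 0.937 to 0.951 between medium and TRAIL-treated libraries. Stimulated libraries differed from TRAIL-treated ones more, with r of 0.816 to 0.856 for Igkv genes and 0.915 to 0.931 for Ighv genes. Between medium and TRAIL the Ighv share that moved most was that of Ighv1-26, at 8.24 to 8.79% of the Ighv TPM in medium and 11.2 to 11.4% with TRAIL, while after stimulation it was at 7.20 to 7.56%. Igkv3-2, like Ighv1-26 picked for this after its shares were seen, was at 0.928 to 1.02% of the Igkv TPM with TRAIL and at 2.14 to 3.03% in medium.

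**Figure D4:**
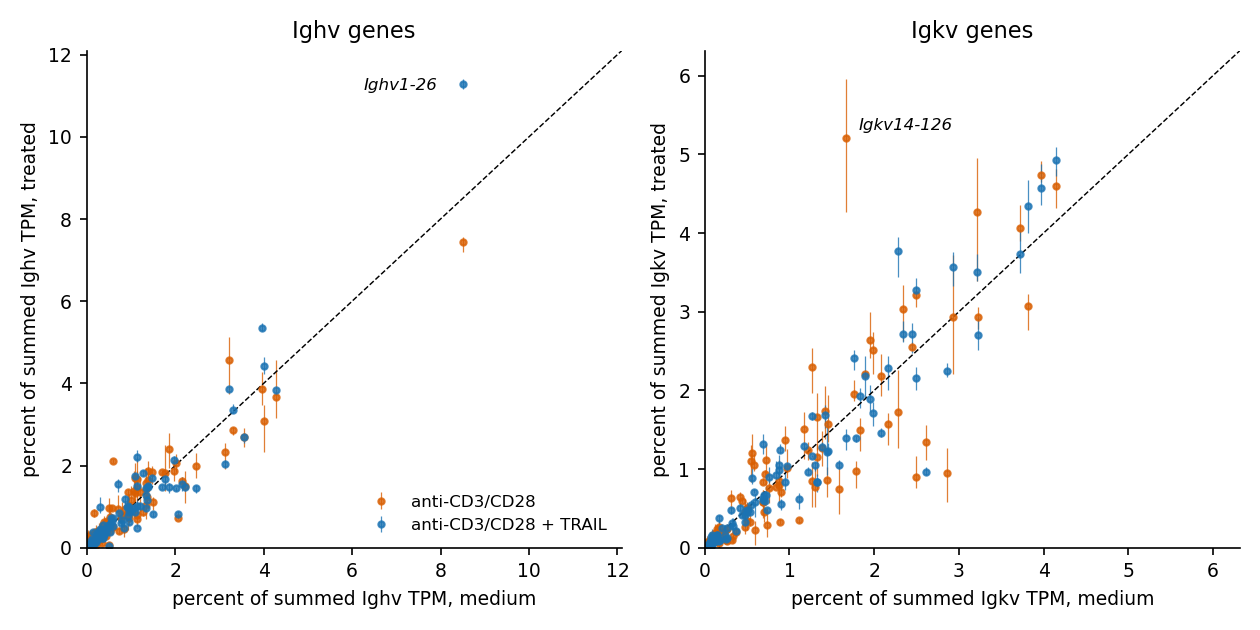
Each point is a variable gene, with its mean percent of the summed Ighv (left) or Igkv (right) TPM in medium on the horizontal axis and in stimulated (orange) or TRAIL-treated (blue) cells on the vertical axis, and vertical lines span the 3 libraries. Most points lie near the dashed line of equal shares, and the genes farthest from it are Ighv1-26, at 11.3% with TRAIL against 8.51% in medium, and Igkv14-126, at 5.20% after stimulation against 1.67% in medium.

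The least certain members were the low ones. Over libraries of a group the median coefficient of variation of variable genes with a medium mean of 10 TPM or more was 9.71% in medium, 22.8% in stimulated and 11.6% in TRAIL-treated cells, and for those under 10 TPM it was 26.3, 86.7 and 40.8%. Of the 113 Ighv members 4, and of the 101 Igkv members 2, had fewer than 50% of their 75-base stretches to themselves, the lowest being Ighv1-71 with 2.81%, which shares 97.2% with Ighv1-62-2, so that values of such genes depend on how reads were divided. Of the 17 pseudogenes 7 were called higher, with a median log2 fold change of 1.11 over the 15 tested. The 3 variable genes that varied most within medium were low. Ighv1-62, a pseudogene, was at 7.49, 2.02 and 0.0001 TPM in medium, the last being the lowest value the table holds, at 1.58, 0.0001 and 0.114 TPM after stimulation and at 0.989, 0.377 and 4.80 TPM with TRAIL. Its libraries overlapped throughout and it was not called (limma adjusted p = 0.354). Ighv5-1, also a pseudogene, was listed at 0.0001 TPM in all 3 stimulated libraries and at 0.374, 13.2 and 0.0001 TPM with TRAIL, so that a single library carried its mean and it was not called (limma adjusted p = 0.149). Igkv2-116 was at 14.7, 11.0 and 4.59 TPM in medium, 0.745, 0.499 and 0.0001 TPM after stimulation and 3.02, 3.86 and 5.23 TPM with TRAIL, and was called (log2 fold change 1.85, SE 0.36, limma adjusted p = 0.00102).

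At the edge of the rule, Igkv3-9 and Ighv1-25 were just inside, with medium means of 1.13 and 1.01 TPM, and Ighv8-7 and Igkv4-56 just outside, with 0.970 and 0.946 TPM. In the stimulated libraries these genes lay between 0.0001 and 0.417 TPM, and in the TRAIL-treated ones between 0.0001 and 1.58 TPM. Besides Iglc4, the members not tested were Ighv1-25, Ighv1-83, Ighv8-6 and Igkv3-3, none of which exceeded 0.971 TPM in a TRAIL-treated library.

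Genes that act on immunoglobulins were followed as a list apart from the members. Of 11 genes of assembly and diversification 6 were tested, and 2 were called higher and 1 lower with TRAIL, against 16.6 and 14.3% of all genes tested, with a median log2 fold change of 0.46. Vpreb3, a pre-B cell receptor-associated gene, rose by 3.22, and Dntt, the enzyme that adds nucleotides at the joints, by 2.02, while Ung, a uracil glycosylase of class switching and of general DNA repair, fell by 2.92 on that scale. Rag1, which cuts the segments, was not tested because of its low level, and lay at 0.989 to 1.27 TPM in medium, 0.0322 to 0.0462 TPM after stimulation and 0.595 to 0.695 TPM with TRAIL, without overlap. Pou2af1 and Pou2f2, coactivator and factor of immunoglobulin promoters, had log2 fold changes of 0.24 (limma adjusted p = 0.0521) and -0.06 (limma adjusted p = 0.76). Of 10 receptor and transport genes 9 were tested and 6 called higher, against 16.6% of all genes tested, with a median of 1.83. Among them Fcmr and Fcer2a are also counted as B cell markers below, and Fcgr3 as a myeloid marker. Fcgrt, the neonatal Fc receptor that recycles IgG, rose by 4.35 and Fcmr, the IgM Fc receptor, by 4.27, whereas the inhibitory IgG receptor Fcgr2b was at 0.81 and was not called.

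Transcripts of other cell types moved with the immunoglobulin genes. Of 18 B cell markers 16 were called higher with TRAIL, against 16.6% of all genes tested, with a median log2 fold change of 2.40. The B cell sum was between 3846 and 4193 TPM in medium, between 363 and 416 TPM after stimulation and between 1669 and 2011 TPM with TRAIL. None of the B cell markers was at the lowest value in any group: Cd79a, a part of the B cell receptor, averaged 555 ± 45.8, 23.3 ± 2.15 and 268 ± 14.5 TPM (SD, n = 3). The B cell sum thus reached 46.3% of medium with TRAIL, compared with 65.6% for constant genes and Jchain. Per TPM of the B cell markers, Ighd stood at 0.163 ± 0.001 TPM in medium, 0.125 ± 0.002 after stimulation and 0.128 ± 0.003 with TRAIL, Ighm at 1.01 ± 0.02, 1.40 ± 0.04 and 1.26 ± 0.04, and Igha at 0.235 ± 0.029, 0.023 ± 0.004 and 0.510 ± 0.030.

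The 15 plasma cell genes were divided, with 5 called higher, 4 lower and a median of 0.05. Of all genes tested 16.6% were called higher and 14.3% lower. The plasma cell sum was at 613 to 636 TPM in medium, 1222 to 1489 TPM after stimulation and 639 to 662 TPM with TRAIL. Irf4 and Xbp1 carried the stimulated sum, with means of 734 and 301 TPM against 57.2 and 78.6 TPM in medium, whereas the median plasma cell gene was at 60.8% of its medium mean after stimulation. Sdc1 (CD138), the surface marker of plasma cells, rose by 1.59 on the log2 scale, Derl3, of the secretory pathway, by 1.38 and Tnfrsf17 (BCMA) by 1.29, from means of 0.99, 2.25 and 0.0229 TPM. Irf4, Xbp1 and Prdm1, factors of plasma cells that activated T cells also express, fell by 1.98, 1.44 and 1.04. Creld2 was called lower too, at -1.66. The largest rise of this list was that of Prg2, at 3.18, and Eaf2 was also called higher. Of the 6 genes not called, Ell2 was at -0.78, Edem1 at -0.17 and Mzb1 at -0.14. Fkbp11 was at 0.05, Txndc5 at 0.12 and Tnfrsf13b at 0.76. Markers of cells outside the B lineage rose as well. The 10 myeloid markers, all called higher with a median of 5.26, ranged in sum from 1431 to 1550 TPM in medium, from 45.6 to 53.5 TPM after stimulation and from 1152 to 1299 TPM with TRAIL. Of 8 erythroid markers 7 were called higher with a median of 3.57, and their sums were 2162 to 2612, 40.0 to 54.1 and 641 to 689 TPM. Slc4a1, a membrane protein of red cells, was at 0.0001 TPM in all 3 stimulated libraries. The part of these other cell types in the immunoglobulin result was not tested.

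**Figure D5:**
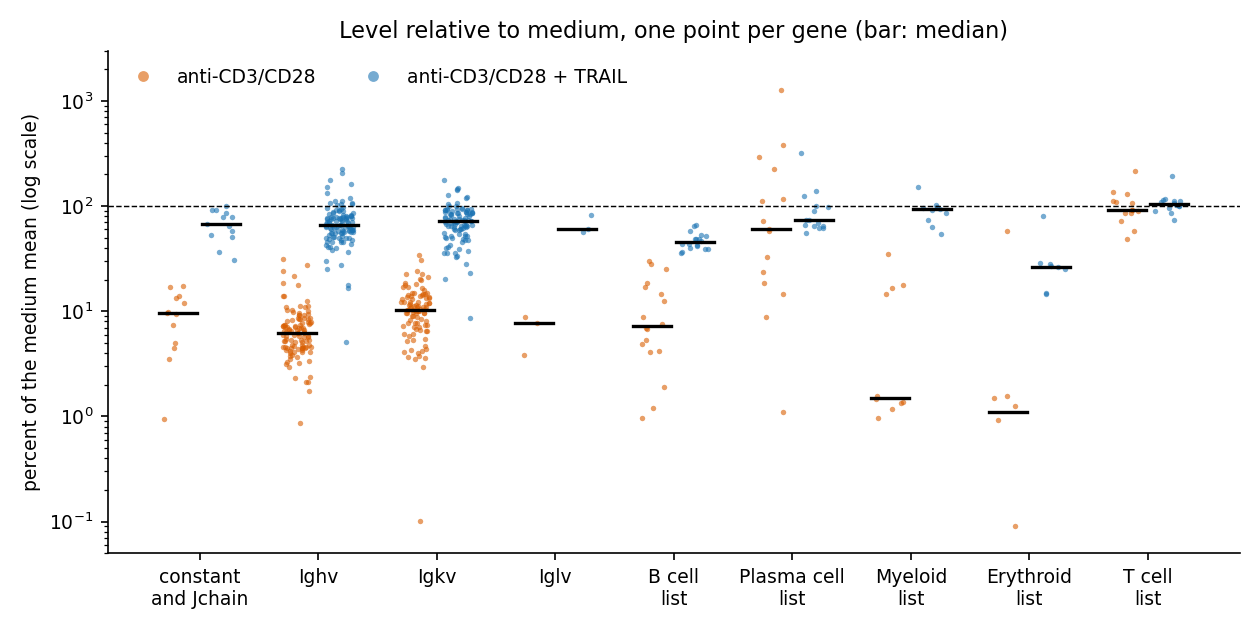
Each point is a gene, at its mean TPM in stimulated (orange) or TRAIL-treated (blue) cells as a percent of its medium mean (vertical axis, log scale), for the immunoglobulin classes and for lists of cell type markers, with a bar at each median, a dashed line at 100% and genes listed at 0.0001 TPM in all 3 libraries of a group left out of the points. The stimulated medians are 9.52% for constant genes and Jchain, 6.25% for Ighv, 7.20% for B cell and 1.51% for myeloid markers but 92.6% for T cell markers, and with TRAIL they are 67.5, 65.9, 45.1, 93.1 and 105%.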

How the data were processed

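RNA was extracted with TRIzol, made into mRNA libraries and sequenced as paired-end reads. Per the labels and methods, the authors trimmed reads with Trimmomatic 0.36, aligned them with HISAT2 2.1.0, and listed SAMtools 1.2, StringTie 2.1.2 and DESeq2. The deposited values are TPM for 55487 genes. The step that made them is not given in the sources used here. The text of the study names GRCm38, whereas the processing notes of the labels name GRCh38. All 230 members lie at their GRCm38 loci in GENCODE M21. The 9 columns were matched to samples by title. TPM counts reads of a variable and of a constant exon separately although they share an mRNA, membrane and secreted forms are summed, and whether reads were counted by strand is not stated.

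From TPM, groups were compared with limma 3.58.1 in R 4.3.3 (lmFit, eBayes with a trend, log2(TPM + 1), all 9 libraries, no replicate block). This scale understates the change of low genes. Sums, shares and ratios were compared by exact permutation. Tables and figures used Python 3.11.15, pandas 2.3.3 and matplotlib 3.10.9. The test was checked on simulated data. The members, the lists (B cell, plasma cell, T cell, myeloid, erythroid, assembly and diversification, receptor and transport) and the tests were chosen with earlier results of these data known. The text names every constant gene and Jchain, the 5 Ighv, 5 Igkv and 3 Iglv genes highest in medium, the 2 largest called rises (no member was called lower), the 3 variable genes with the largest SD in medium, 2 genes on each side of the 1 TPM limit, and genes of the lists. Alternatives covered each library left out in turn, the threshold of the rule and of the call, the replicate block, the variance trend, the libraries fitted, scaling, filter and pseudocount.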

Additional observations from a re-analysis of the deposited data

How the results depend on the processing

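All 12 genes tested among the constant genes and Jchain were called higher with TRAIL, and none lower, under every alternative tried. The count of variable genes called higher was 191, between 160 with a pseudocount of 5 and 204 with a pseudocount of 0.1 or without the fold change threshold. Leaving out single libraries gave 191 to 195, and a limit of 5 TPM in medium 177. The log2 ratio of the summed constant TPM was 2.59 to 2.67 without single libraries and 2.96 without Ighm, and that of the variable sum 3.13 to 3.23 and 3.15 without Iglv1. Of the named genes, Igkv2-116 lost its call with a pseudocount of 5 (log2 fold change 0.73), while Ighv5-1 (2.14) and Ighv8-7 (1.03) gained one without TRAIL-treated replicate 3, and Ighv8-7 and Igkv3-9 did so with a pseudocount of 0.1 (2.15 and 2.32) and without the fold change threshold (0.74 and 0.68). Other scalings moved the median of all genes by -0.02 and -0.04, and all 225 members tested stayed above 0. The labels do not say whether replicate numbers pair the samples. Deviations from the group means correlated at -0.31, 0.02 and -0.20 between same-numbered stimulated and TRAIL-treated libraries. Between same-numbered medium and stimulated libraries they correlated at 0.21, 0.30 and -0.18. With 3 libraries per group such values cannot settle the pairing. The replicate block left 12 constant and 191 variable calls and log2 ratios of 2.63 and 3.18, with an exact p of 0.25, the smallest that 3 pairs can give. Depth is unknown, so a low value cannot be told from too few reads.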

Other observations

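Log2 fold changes with TRAIL were close along the loci. The median was 2.97 for the 57 Ighv members at 1235 to 2577 kb from Ighm and 2.94 for the 56 at 150.2 to 1193 kb, and for Igkv genes, by distance from Igkc, 2.16 for the 51 farther and 2.33 for the 50 nearer members, untested members left out of the medians. The Igkv genes on the plus strand, 39 in number, had a median of 2.17 and the 62 on the minus strand 2.54. The 8 variable genes with all TRAIL-treated libraries above all medium ones were Ighv13-2, Ighv1-11, Ighv7-1, Ighv7-3, Igkv7-33, Igkv2-109, Igkv15-103 and Igkv3-7, at 122 to 225% of their medium means, and Ighv1-56 stood lowest against medium with TRAIL, at 5.10%. These genes were chosen after their values were seen.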
